A study of Mus musculus with 12 samples.

Results

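The genes described here encode the machinery of the lysosome and of autophagy, followed through B-cell activation and plasmablast differentiation. They are 41 of the 27179 genes in the deposited count table, chosen by symbol through their Entrez identifiers: 14 subunits of the vacuolar proton pump (V-ATPase), 12 lysosome genes and 15 autophagy genes. The RNA-Seq data hold 12 libraries of splenic B cells, 6 stages in biological duplicate (n = 2 each), from young adult male C57BL/6 mice. Naive cells, untreated, were sorted as IgM+IgDhi B cells. All other stages come from cultures given 25 μg/ml lipopolysaccharide (LPS, from Salmonella typhosa): undivided CD69+ cells at 3 h, 10 h and 33 h, the last at imminent division, and, on day 4, expanded B cells, gated as CD22+CD138-, and plasmablasts, gated as CD22-CD138+. The 3 h, 10 h and 33 h cells share a gate and differ in time, whereas expanded B cells and plasmablasts share a day and differ in gate. From naive to 3 h and from 33 h to expanded B cells both changed, and these cannot be told apart. The day 4 cultures were also kept at a lower cell density than those of 3 h, 10 h and 33 h. Naive cells were sorted from splenocytes, whereas the cultures began from B cells isolated by negative selection. At those transitions these differences cannot be told apart from time and gate either. It is not stated how many mice stand behind a library, so the tests measure the spread between these libraries.

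The V-ATPase is a rotary pump that acidifies lysosomes, endosomes and the Golgi. Its V0 sector sits in the membrane and carries protons, and its V1 sector lies in the cytosol and splits ATP. Autophagy wraps cytoplasm in a double membrane decorated with proteins of the ATG8 family and delivers it to the lysosome, where acid-dependent hydrolases such as the cathepsins digest it. Plasma cells are known to depend on autophagy for their survival and for limiting the load of the secretory pathway, and transcription factors of the MiT/TFE family (Tfeb, Tfe3 and Mitf here) switch on lysosome and autophagy genes in many cell types.

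The libraries held 23026619 to 60585587 counts (median 37839944). Levels are in RPKM (reads per kilobase of exon scaled to library size after TMM normalization), so they can be compared between genes. DE (differentially expressed) here means that glmTreat, edgeR's test of a change beyond a set fold, passed for 1.5-fold at a Benjamini-Hochberg adjusted p under 0.05 over 12750 tested genes. Of the 41 genes, 39 were in that fit. Lamp2 and Tfe3 lie on the X chromosome, whose genes the study's method removes, and their tests come from a fit of 13854 genes that keeps them. The summed level of 4 B-cell markers was 1940 to 6110 RPKM in every library, and that of 4 plasmablast markers rose from 762 to 908 RPKM in expanded B cells to 10400 to 10600 RPKM in plasmablasts. At 3 h the replicates differed more than at other stages. The SD of the log2 ratio of replicate 1 to replicate 2 over all tested genes was 0.33 there and 0.15 to 0.23 elsewhere, and the median of that ratio over the 39 tested members was 0.3 at 3 h against -0.03 to 0 at the other stages.

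Plasmablasts held the highest level of most of these genes. Of the 14 V-ATPase genes, 10 had their highest mean RPKM there, as did 8 of 12 lysosome genes and 9 of 15 autophagy genes, while 6 autophagy genes were highest at 3 h. The share of all tested genes with their highest mean in plasmablasts was not computed. Some of these peaks were near ties, such as Atp6v1g1 with means of 13.8 RPKM in plasmablasts and 13.5 RPKM at 10 h. At least 1 DE call was made over the 5 consecutive transitions for 23 members, and 18 members had none. The matching share of all tested genes was not computed, so these counts do not set the members apart. From naive to 3 h alone, 5774 of the 12750 tested genes were called. The plot of all members by library shows the columns of the plasmablasts apart from the rest.

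**Figure D1:**
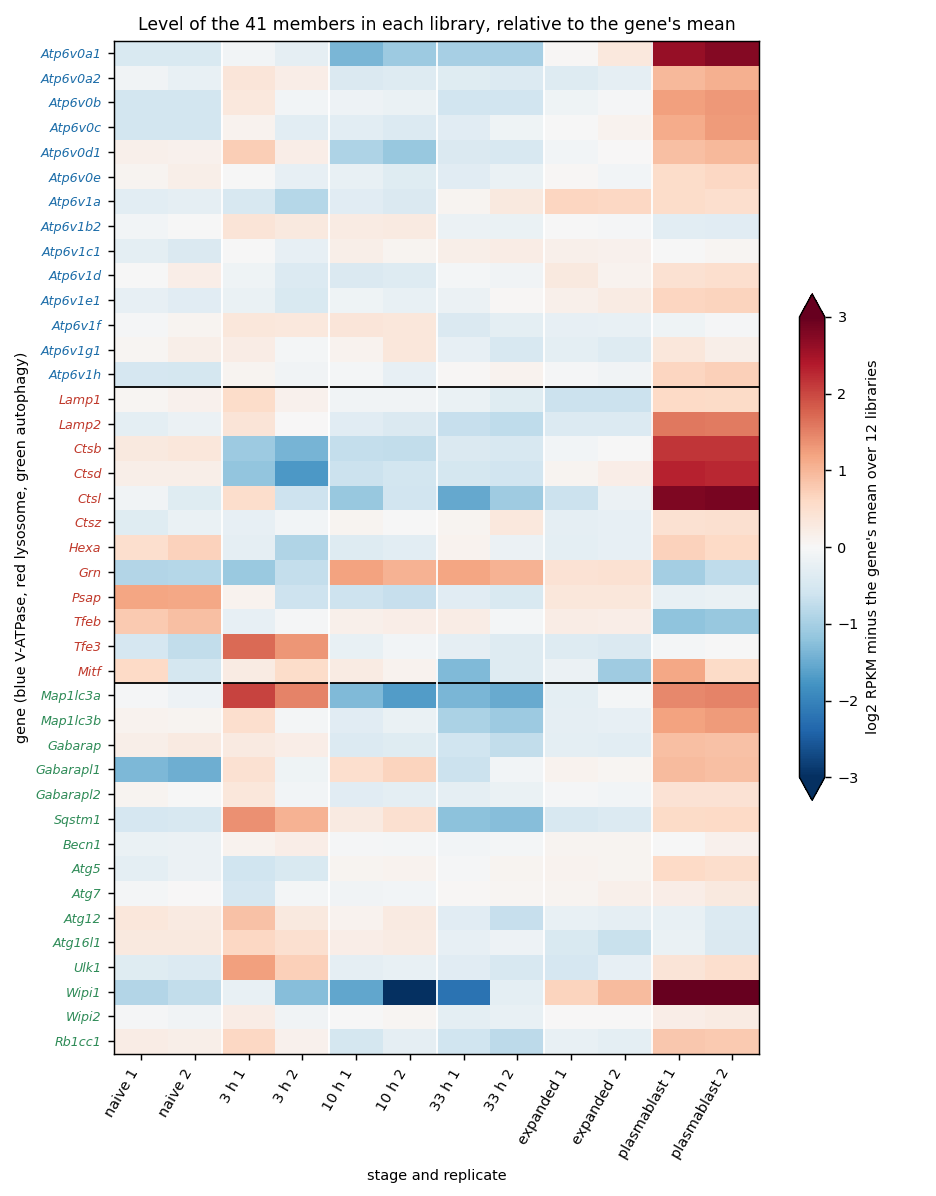
Level of each of the 41 genes (rows) in each of the 12 libraries (columns, stage and replicate), as log2 RPKM minus the gene's mean over the libraries, red for higher and blue for lower, with the colours capped at 3 in either direction. Plasmablast libraries are red for most rows, whereas Tfeb, Grn and Psap are at or below their mean there.

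The expanded-to-plasmablast transition had the most calls. Of the 39 members tested without X chromosome genes, 16 (41%) rose and 2 (5.13%) fell, where 13.9% of all tested genes rose and 12.2% fell. The median log2 fold change was 0.75 over the members and -0.05 over all tested genes. With scaling by library size alone 12 rose and 3 fell, with a median of 0.41. Lamp2 rose too in the fit with X chromosome genes. At the earlier transitions the share of members called was below that of all tested genes. From naive to 3 h, 4 members (10.3%) rose and 5 (12.8%) fell, against 21% and 24.3% of all tested genes. From 3 h to 10 h, 2 rose (5.13%) and 5 fell (12.8%), against 17.4% and 13.4%. That split turned to 4 rises and 3 falls with library size alone (median 0.12 against -0.2), and without 3 h replicate 2 it was 1 rise and 10 falls. From 10 h to 33 h none of the 39 rose and 1 (2.56%) fell, against 10.1% and 4.45%. From 33 h to expanded B cells 2 (5.13%) rose and none fell, against 6.94% and 3.66%. For both of those empty directions glmTreat gave 0 genes at an unadjusted p under 0.05 and DESeq2's Wald test called 0. With no threshold on the fold, the quasi-likelihood F-test called 23, 24, 15, 18 and 30 of the 39 over the 5 transitions. Of all 12750 tested genes it called 9052, 7942, 5798, 5053 and 7256.

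Among the V-ATPase genes, the rise in plasmablasts was called for V0 subunits. Of the 6 V0 genes 5 (83.3%) rose, with a median log2 fold change of 1.25, where 13.9% of all tested genes rose. Of the 8 V1 genes 0 were DE, with a median of 0.22. For V1, 1 gene reached an unadjusted p under 0.05 and DESeq2's Wald test called 0. The summed V0 level went from 383 and 398 RPKM in the expanded B-cell libraries to 861 and 927 RPKM in the plasmablast libraries, and the summed V1 level from 375 and 369 RPKM to 436 and 446 RPKM. No test of the difference between the sectors was made. With scaling by library size alone, the V1 median became -0.12 and the V0 median 0.91.

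Atp6v0a1 (chr11:101009422-101063719, mm10), which encodes an isoform of the large membrane subunit that bears the proton half-channels, had the largest ratio of highest to lowest stage mean among the pump genes (15). Its level was 18.6 and 18.7 RPKM in naive cells, 24.3 and 21.4 after 3 h, 9.89 and 12 after 10 h, 12.9 and 12.9 after 33 h, 26.5 and 32.1 in the expanded cells, and 157 and 173 RPKM in plasmablasts. Both plasmablast libraries lay far above every other library. The fall from 3 h to 10 h (log2 fold change -1.06 ± 0.12 SE, adjusted p = 0.00087), the rise from 33 h to expanded B cells (1.18 ± 0.12, adjusted p = 0.00051) and the 5.65-fold rise to plasmablasts (2.5 ± 0.12, adjusted p = 1.9e-08) were all DE. The first of these was not called with scaling by library size alone (-0.73, adjusted p = 0.093).

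The other isoform of that subunit in the list, Atp6v0a2 (chr5:124629052-124724455), was steadier before the last stage. It stood at 22.5 and 20.7 RPKM in naive cells, 31.4 and 27.9 after 3 h, 18 and 18.6 after 10 h, 19 and 18.2 after 33 h, 18.6 and 20.1 in the expanded cells, and 48.1 and 50.7 RPKM in plasmablasts. Only the last step was DE among its 5 transitions, a 2.56-fold rise (log2 fold change 1.35 ± 0.09, adjusted p = 3e-06). Before the last stage, the mean level of Atp6v0a1 was below that of Atp6v0a2 at 4 of the 5 stages, and in plasmablasts Atp6v0a1 was the higher by far.

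The proteolipid subunits form the ring that turns in the membrane. Atp6v0c (chr17:24163865-24169678) was at 68.8 and 69.1 RPKM in naive cells, 108 and 81 after 3 h, 80.7 and 75.3 after 10 h, 79.2 and 92.5 after 33 h, 100 and 109 in the expanded cells, and 219 and 242 RPKM in plasmablasts. Atp6v0b (chr4:117884330-117887333) was at 42.2 and 42 RPKM in naive cells, 77.5 and 58.7 after 3 h, 55.3 and 53.6 after 10 h, 41.3 and 41.3 after 33 h, 56.2 and 60.5 in the expanded cells, and 145 and 153 RPKM in plasmablasts. Both ring genes were thus highest in plasmablasts, and both rose there, 2.2-fold for Atp6v0c (1.14 ± 0.13, adjusted p = 0.00051) and 2.55-fold for Atp6v0b (1.35 ± 0.12, adjusted p = 2e-05).

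Atp6v0d1 (chr8:105524461-105566064), the subunit that couples the ring to the central stalk, moved at an earlier step as well. Its values were 73.6 and 72.6 RPKM in naive cells, 111 and 76 after 3 h, 35 and 30.3 after 10 h, 49.1 and 47.7 after 33 h, 62.6 and 67.1 in the expanded cells, and 125 and 131 RPKM in plasmablasts. It fell 2.86-fold from 3 h to 10 h (log2 fold change -1.52 ± 0.14, adjusted p = 2.7e-05) and rose 1.97-fold to plasmablasts (0.98 ± 0.14, adjusted p = 0.0084). The rise was not called with library size alone (0.64, adjusted p = 0.32) or without expanded replicate 1 (0.93, adjusted p = 0.056). The remaining V0 gene, Atp6v0e, ranged from 94.2 to 172 RPKM between stage means and was DE at no transition.

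The V1 genes showed little movement between neighbouring stages. Their stage means ran from 9.01 RPKM for Atp6v1g1 at 33 h to 121 RPKM for Atp6v1f at 10 h, and the ratio of the highest to the lowest stage mean lay between 1.48 for Atp6v1c1 and 2.46 for Atp6v1a, the catalytic subunit. Atp6v1h, a regulatory subunit, came closest to a call at the last step, from 48.5 and 46.2 RPKM to 78.1 and 80.8 RPKM (0.75 ± 0.09, adjusted p = 0.052). It was called with DESeq2's size factors (0.78, adjusted p = 0.032). Over the whole course from naive cells to plasmablasts, 3 V1 genes (37.5%) were DE, all higher, where 26.6% of all tested genes were higher. The 3 calls were those of Atp6v1a (0.83 ± 0.12, adjusted p = 0.015), Atp6v1e1 (0.95 ± 0.11, adjusted p = 0.0013) and Atp6v1h (1.19 ± 0.09, adjusted p = 6.6e-06). With scaling by library size alone, only that of Atp6v1h was left, and the call of Atp6v1a was also lost under DESeq2's Wald test (0.83, adjusted p = 0.14) and without naive replicate 1 (0.8, adjusted p = 0.058) or plasmablast replicate 1 (0.8, adjusted p = 0.057).

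**Figure D2:**
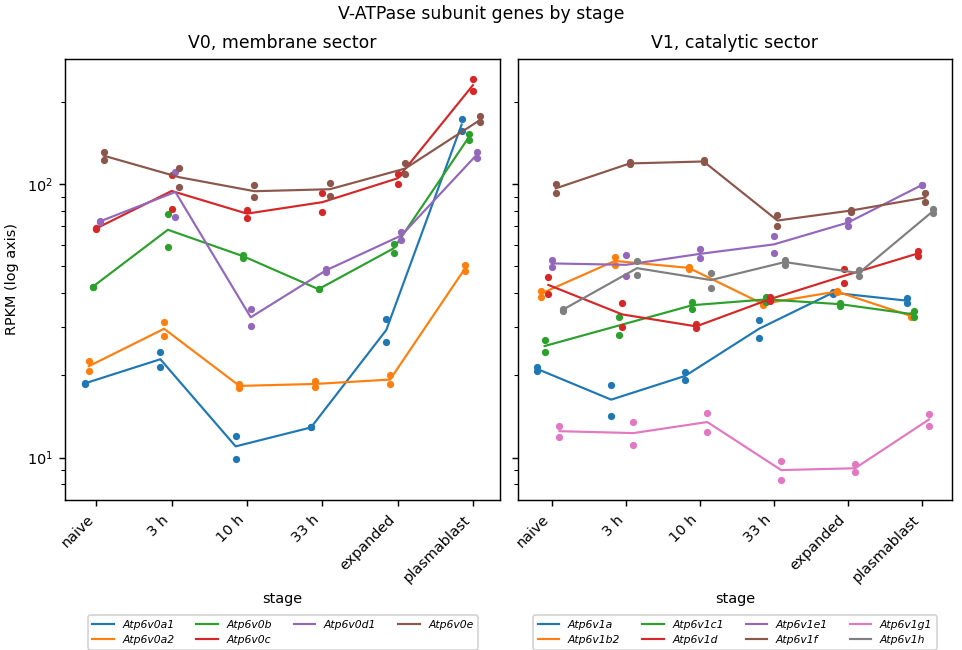
RPKM of the V-ATPase genes on a log axis at the 6 stages, V0 genes on the left and V1 genes on the right, with a point for each library and lines through the stage means. The 5 V0 genes that rose at the last step, such as Atp6v0a1 from 26.5 and 32.1 to 157 and 173 RPKM, rise steeply, and the V1 lines stay comparatively flat.

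Lysosome genes followed several courses. Ctsb and Ctsd fell on activation, all 4 cathepsins had their highest mean in plasmablasts, Grn was high in the middle of the series, and Psap and Tfeb were highest in naive cells. Of the 10 lysosome genes tested without X chromosome genes, 5 (50%) fell and 0 rose from naive to 3 h (median log2 fold change -0.5). Of all tested genes, 24.3% fell and 21% rose there. From expanded B cells to plasmablasts 5 (50%) rose and 2 (20%) fell (median 1.07), against 13.9% and 12.2% of all tested genes. For the empty direction at 3 h, 0 genes reached an unadjusted p under 0.05 and DESeq2's Wald test called 0. With library size alone, the split at the last step was 4 up and 3 down, Psap being the additional fall.

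The summed levels of markers of other cell types were highest in the naive libraries. Some single markers were higher later. Mpeg1 had a mean of 14.7 RPKM in naive cells and 28.7 RPKM at 10 h. Itgam and Adgre1 had their highest mean in expanded B cells, and the T-cell markers Trac and Cd3g in plasmablasts. Myeloid markers, a list of 12 genes such as Lyz2 and S100a8, summed to 428 and 180 RPKM in naive replicates 1 and 2 with none at 0, to 6.85 and 17.2 RPKM at 3 h with 8 and 7 of them at 0, to between 26.3 and 36.5 RPKM from 10 h to expanded B cells, and to 0.514 and 0.776 RPKM in plasmablasts. From 3 h to expanded B cells, most of the myeloid sum was Mpeg1, at 5.97 and 15.4 RPKM at 3 h. A list of 5 erythroid markers summed to 290 to 380 RPKM in naive libraries and to at most 3.2 RPKM elsewhere. A list of 8 T-cell markers summed to between 10.9 and 35 RPKM throughout. Most of the T-cell sum in the naive libraries was Lck, at 29.4 and 32.3 RPKM. Myeloid cells express many lysosome genes, and in bulk RNA fewer cells of a type and less RNA per cell cannot be told apart. The naive replicates differed more than 2-fold in their myeloid sum, and both lay above every other library. Each of the 5 falls of lysosome genes kept its sign with either naive library left out. That cannot settle the part of myeloid RNA in them, since both naive libraries held these markers. This part was not tested.

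The cathepsins Ctsb and Ctsd had nearly the same course. Ctsb (chr14:63122462-63145923), a cysteine protease, was at 47.4 and 48.7 RPKM in naive cells, 18.1 and 14.6 after 3 h, 23.5 and 23.2 after 10 h, 28.4 and 27.5 after 33 h, 36.6 and 38.4 in the expanded cells, and 169 and 169 RPKM in plasmablasts. Ctsd (chr7:142375910-142387827), an aspartic protease, was at 65.4 and 65.6 RPKM in naive cells, 25.8 and 17.7 after 3 h, 37.4 and 39.6 after 10 h, 40.2 and 39.4 after 33 h, 61.3 and 66.9 in the expanded cells, and 291 and 281 RPKM in plasmablasts. Both were lowest at 3 h and climbed from then on by stage mean, except for a level course of Ctsd between 10 h and 33 h.

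For Ctsb, the fall to 3 h was 2.94-fold (log2 fold change -1.55 ± 0.1, adjusted p = 2.8e-07) and the rise to plasmablasts 4.51-fold (2.17 ± 0.1, adjusted p = 1.4e-08). For Ctsd, the fall was 3.03-fold (-1.6 ± 0.13, adjusted p = 3.7e-06) and the last rise 4.46-fold (2.16 ± 0.13, adjusted p = 2.1e-07). A rise of Ctsd from 3 h to 10 h was also called (0.83 ± 0.13, adjusted p = 0.039), but that call was lost with DESeq2's size factors (0.75, adjusted p = 0.11), and without 3 h replicate 2 the change was 0.54 (adjusted p = 0.67).

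Ctsl (chr13:64361890-64370772), another cysteine protease, was scarce until the last stage. It measured 2.38 and 1.99 RPKM in naive cells, 3.71 and 1.68 after 3 h, 1.17 and 1.73 after 10 h, 0.892 and 1.23 after 33 h, 1.65 and 2.27 in the expanded cells, and 17.9 and 18.4 RPKM in plasmablasts. Its 9.3-fold rise at the last step (3.22 ± 0.31, adjusted p = 9.6e-06) was the only DE change among its 5 transitions. Ctsz, a carboxypeptidase of the same family, was by contrast abundant at every stage, with stage means of 265 to 449 RPKM, and was not DE between neighbouring stages. Its change to plasmablasts, 0.74 ± 0.1 with an adjusted p of 0.07, was called with DESeq2's size factors (0.77, adjusted p = 0.044).

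Membrane glycoproteins of the lysosome rose together in plasmablasts. Lamp1 went from 74.3 and 74.3 RPKM in expanded B cells to 175 and 171 RPKM, a 2.33-fold rise (1.22 ± 0.12, adjusted p = 9.7e-05), after a range of stage means from 74.3 RPKM up to 148 RPKM at 3 h. Lamp2 went from 25.7 and 26 RPKM to 102 and 101 RPKM, a 3.95-fold rise in the fit with X chromosome genes (1.98 ± 0.11, adjusted p = 9.9e-08). Both plasmablast libraries lay above the naive Lamp1 level of 121 and 126 RPKM. The change of Lamp1 over the whole course was not DE beyond 1.5-fold (0.49 ± 0.11, adjusted p = 0.76), but the F-test without a fold threshold called it higher. Lamp2 stood 3.43-fold above the naive level (1.78 ± 0.11, adjusted p = 9.9e-08).

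Among the lumenal proteins, Grn (chr11:102430507-102436809), which encodes progranulin, was at 59 and 60.1 RPKM in naive cells, 50.1 and 66.8 after 3 h, 251 and 224 after 10 h, 248 and 224 after 33 h, 146 and 149 in the expanded cells, and 54.1 and 63.9 RPKM in plasmablasts. The 4 libraries of 10 h and 33 h were the highest, and plasmablasts were back at the naive level. Its 4.06-fold rise from 3 h to 10 h (2.02 ± 0.13, adjusted p = 4.6e-07) and its 2.5-fold fall to plasmablasts (-1.32 ± 0.13, adjusted p = 6e-05) were DE.

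Psap, the precursor of the saposins that help enzymes reach sphingolipids, was at 439 and 432 RPKM in naive cells and fell 2.61-fold by 3 h, to 208 and 126 RPKM (-1.38 ± 0.17, adjusted p = 0.00023). It stayed below the naive level in all later libraries and was lower in plasmablasts than in naive cells (-1.39 ± 0.17, adjusted p = 0.00018). Hexa, the alpha subunit of beta-hexosaminidase, fell from 38.8 and 44.5 RPKM to 22.7 and 14.8 RPKM at 3 h (-1.16 ± 0.16, adjusted p = 0.0013) and rose from 22.5 and 23 RPKM in expanded B cells to 44.3 and 41.3 RPKM in plasmablasts (0.91 ± 0.16, adjusted p = 0.033). That rise was lost under DESeq2's Wald test (0.95, adjusted p = 0.18), with library size alone (0.57, adjusted p = 0.51), and without expanded replicate 1 (0.9, adjusted p = 0.1), expanded replicate 2 (0.93, adjusted p = 0.079) or plasmablast replicate 1 (0.89, adjusted p = 0.097).

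The MiT/TFE regulators moved in different directions. Tfeb (chr17:47737037-47792416) was at 72.7 and 77.9 RPKM in naive cells, 35.6 and 40.7 after 3 h, 47 and 48.5 after 10 h, 49 and 40.1 after 33 h, 49 and 48.1 in the expanded cells, and 18.1 and 19.1 RPKM in plasmablasts. The plasmablast libraries were the lowest of the series. It fell 1.97-fold on activation (-0.98 ± 0.1, adjusted p = 0.00078) and 2.61-fold at the last step (-1.38 ± 0.11, adjusted p = 7.4e-06), where Ctsb, Ctsd, Ctsl and 5 V0 subunits rose.

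Tfe3 (chrX:7762530-7775202) peaked at 3 h. It was at 15 and 12.7 RPKM in naive cells, 69.4 and 53.5 after 3 h, 18.3 and 20.2 after 10 h, 17.7 and 16.2 after 33 h, 16.3 and 15.7 in the expanded cells, and 20.4 and 21.2 RPKM in plasmablasts. In the fit with X chromosome genes it rose 4.42-fold to 3 h (2.14 ± 0.13, adjusted p = 8.1e-08) and fell 3.14-fold to 10 h (-1.65 ± 0.13, adjusted p = 4.5e-06). The change to plasmablasts was 0.39 ± 0.13 and not DE (adjusted p = 1). At 3 h Tfe3 exceeded Tfeb in both libraries, at naive cells and from 10 h to expanded B cells Tfeb was the higher in both, and in plasmablasts their levels lay close to each other.

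Mitf (chr6:97807002-98021360) was close to absent. Its level was 0.165 and 0.0749 RPKM in naive cells, 0.129 and 0.159 after 3 h, 0.128 and 0.117 after 10 h, 0.0433 and 0.0826 after 33 h, 0.0967 and 0.0522 in the expanded cells, and 0.245 and 0.163 RPKM in plasmablasts, from 9 to 32 counts per library. No change of Mitf was DE between neighbouring stages, and at this depth its SE of 0.45 to 0.51 was wide, so that smaller changes were not detectable.

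**Figure D3:**
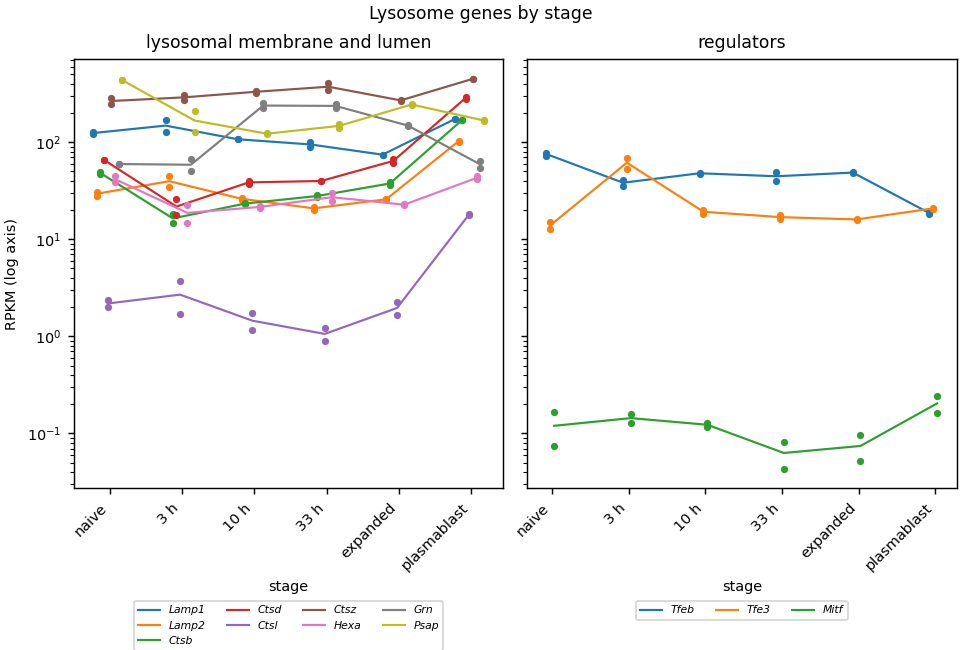
RPKM of the lysosome genes on a log axis at the 6 stages, proteins of the membrane and lumen on the left and MiT/TFE regulators on the right, with a point for each library and lines through the stage means. Ctsb, Ctsd and Ctsl climb to plasmablasts, Grn is high at 10 h and 33 h, and Tfeb falls at the last step to 18.1 and 19.1 RPKM, beside Tfe3 at 20.4 and 21.2 RPKM.

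MiT/TFE proteins are known to bind an E-box, the letters CACGTG, and in many lysosome genes the longer form GTCACGTG. Promoter windows from RefSeq on GRCm38.p6 (the assembly of mm10), 250 bases before and 50 after a start, were at hand for 30 of the 41 genes and were searched on both strands. GTCACGTG was found in 5 of the 30 genes (16.7%), TCACGTGA in 4 (13.3%) and CACGTG, which lies within both, in 9 (30%). Over all 27025 genes with a window the shares were 2.55%, 1.12% and 8.09%. The 9 genes were Atp6v0b, Atp6v0d1, Atp6v0e, Atp6v1a, Lamp1, Ctsd, Ctsl, Atg5 and Atg7. All 5 genes with the longer form are shown. Atp6v0b, Atp6v0d1, Ctsd and Lamp1 rose at the last step, while Atg7 was DE at no transition. Of the genes with CACGTG but not the longer form, Ctsl rose at the last step. The rest of these, Atp6v0e, Atp6v1a and Atg5, were not DE between neighbouring stages. A link between these letters and the changes was not tested. The Atg7 window lies at an inner start, within the gene's span of chr6:114643127-114860604. The other windows shown lie at the outer start of their gene. The stretches are printed 5′ to 3′ on the strand of the gene, with every CACGTG in capitals. They cover chr4:117887330-117887427 for Atp6v0b (minus strand), chr8:105566062-105566129 for Atp6v0d1 (minus strand, ending 3 bases into the transcript), chr8:13159073-13159160 for Lamp1 (plus strand), chr7:142387858-142388077 for Ctsd (minus strand) and chr6:114670902-114671029 for Atg7 (plus strand).
Atp6v0b: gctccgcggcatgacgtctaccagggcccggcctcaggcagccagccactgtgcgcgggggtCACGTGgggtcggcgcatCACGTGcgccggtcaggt
Atp6v0d1: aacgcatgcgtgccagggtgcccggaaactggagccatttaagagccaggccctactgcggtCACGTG
Lamp1: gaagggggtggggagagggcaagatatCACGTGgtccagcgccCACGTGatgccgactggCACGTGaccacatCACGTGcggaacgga
Ctsd: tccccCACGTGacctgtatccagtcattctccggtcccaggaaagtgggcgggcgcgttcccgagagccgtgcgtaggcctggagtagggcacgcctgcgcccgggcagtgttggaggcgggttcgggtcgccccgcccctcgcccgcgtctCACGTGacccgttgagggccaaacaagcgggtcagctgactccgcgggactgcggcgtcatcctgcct
Atg7: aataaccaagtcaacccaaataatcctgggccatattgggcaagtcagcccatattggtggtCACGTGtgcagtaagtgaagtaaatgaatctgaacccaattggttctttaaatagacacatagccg

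Lamp1 holds 4 such runs within 61 bases of its start, Atp6v0b 2, Ctsd 2, and Atp6v0d1 and Atg7 1 each. Of the 5 V0 genes with a window 3 hold CACGTG, and of the 4 V1 genes 1 does. These matches describe letters and not binding, which was not measured here.

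Among the autophagy genes, 4 of 15 (26.7%) rose and 0 fell from naive to 3 h, where 21% of all tested genes rose and 24.3% fell. From 3 h to 10 h 3 (20%) fell and 0 rose, where 13.4% of all tested genes fell and 17.4% rose. At the last step 6 (40%) rose and 0 fell, where 13.9% of all tested genes rose and 12.2% fell. The median log2 fold changes were 0.18, -0.45 and 0.81. In each of these empty directions 0 genes reached an unadjusted p under 0.05 and DESeq2's Wald test called 0. With library size alone the first median was -0.04, with 4 rises and 0 falls as before, and 1 gene rose and 2 fell from 3 h to 10 h. The genes that rose at 3 h were a pair of ATG8 genes, the receptor Sqstm1 and the kinase gene Ulk1.

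Map1lc3a (chr2:155276364-155278073), an LC3 gene whose product is anchored in the autophagosome membrane, had 4 DE transitions, as did Sqstm1. It was at 11.7 and 10.8 RPKM in naive cells, 48.7 and 33.8 after 3 h, 4.8 and 3.78 after 10 h, 4.66 and 4.2 after 33 h, 9.78 and 11.5 in the expanded cells, and 32.4 and 33.8 RPKM in plasmablasts. The 3 h mean was the highest, and the plasmablast libraries came next. It rose 3.63-fold to 3 h (1.86 ± 0.17, adjusted p = 6.4e-06), fell 9.52-fold to 10 h (-3.25 ± 0.19, adjusted p = 8.7e-08), rose 2.39-fold from 33 h to expanded B cells (1.26 ± 0.18, adjusted p = 0.0047) and rose 3.11-fold to plasmablasts (1.64 ± 0.17, adjusted p = 6e-05). Without expanded replicate 2, the third of these was 1.14 with an adjusted p of 0.05 and was not called.

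Its paralogue Map1lc3b (chr8:121590438-121598760) showed the late rise alone. The values were 38.9 and 38.3 RPKM in naive cells, 51.5 and 34.9 after 3 h, 28.7 and 31.8 after 10 h, 18.9 and 17 after 33 h, 30.1 and 30.7 in the expanded cells, and 83.7 and 87.5 RPKM in plasmablasts. Its replicates at 3 h lay on either side of the naive values, and the rise to plasmablasts was 2.82-fold (1.49 ± 0.14, adjusted p = 3.6e-05).

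Gabarapl1 (chr6:129533192-129542331) rose early and did not return to its naive level. It was at 2.85 and 2.62 RPKM in naive cells, 9.94 and 6.59 after 3 h, 10.2 and 11.5 after 10 h, 4.65 and 6.81 after 33 h, 7.75 and 7.55 in the expanded cells, and 14 and 13.4 RPKM in plasmablasts. Every later library exceeded both naive libraries. The rise to 3 h was 2.98-fold (1.58 ± 0.21, adjusted p = 0.00024), the change at the last step was not DE (0.84 ± 0.19, adjusted p = 0.11), and over the whole course the gene stood 4.99-fold higher (2.32 ± 0.21, adjusted p = 1.9e-06).

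Of the remaining ATG8 genes, Gabarap was the most abundant of the family at every stage, with means of 75.5 RPKM at 33 h to 222 RPKM in plasmablasts and a 2.3-fold rise at the last step (1.2 ± 0.08, adjusted p = 6.7e-06). Gabarapl2 stayed between stage means of 15.8 and 26.5 RPKM and was DE at no transition. Together, the 5 ATG8 genes summed to 163 and 165 RPKM in expanded B cells and to 382 and 381 RPKM in plasmablasts.

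Sqstm1 (chr11:50200152-50210820), which encodes the cargo receptor p62, was the most abundant autophagy gene at every stage. Its level was 181 and 184 RPKM in naive cells, 660 and 522 after 3 h, 309 and 356 after 10 h, 109 and 105 after 33 h, 183 and 192 in the expanded cells, and 380 and 386 RPKM in plasmablasts. Both 3 h libraries stood above all others, and the 33 h libraries were the lowest. The 3.24-fold rise to 3 h (1.7 ± 0.11, adjusted p = 2.3e-07) and the 3.11-fold fall from 10 h to 33 h (-1.64 ± 0.11, adjusted p = 1.5e-06) were DE, and the latter was the one call among all 39 members at that transition.

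Between them lay a fall from 3 h to 10 h (-0.83 ± 0.11, adjusted p = 0.018) that was not called with library size alone (-0.49, adjusted p = 0.91), without 3 h replicate 1 (-0.65, adjusted p = 0.26) or without 10 h replicate 1 (-0.73, adjusted p = 0.14). The rise of Sqstm1 to plasmablasts was 2.04-fold (1.03 ± 0.11, adjusted p = 0.00072) and was not called with library size alone (0.69, adjusted p = 0.13).

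Ulk1, the kinase that starts autophagosome formation, was also highest at 3 h. It went from 6.77 and 6.59 RPKM in naive cells to 20.4 and 14.4 RPKM at 3 h (1.38 ± 0.15, adjusted p = 5.4e-05) and back to 7.18 and 7.5 RPKM at 10 h (-1.24 ± 0.15, adjusted p = 0.00039). Its change to plasmablasts, to 11.4 and 12.3 RPKM, was 0.81 ± 0.15 with an adjusted p of 0.073. Rb1cc1 (FIP200), a scaffold of the same kinase complex, was instead DE at the last step, from 6.14 and 5.82 RPKM to 12.5 and 12.4 RPKM (1.06 ± 0.14, adjusted p = 0.0033), a call that was lost with library size alone (0.72, adjusted p = 0.15).

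Wipi1 (chr11:109573521-109611389), a protein that binds the phosphoinositide made on the growing membrane, had the largest fold change of all 41 genes at the last step. It was at 0.406 and 0.448 RPKM in naive cells, 0.644 and 0.307 after 3 h, 0.252 and 0.0582 after 10 h, 0.161 and 0.612 after 33 h, 1.18 and 1.44 in the expanded cells, and 17.1 and 19.6 RPKM in plasmablasts. These values rest on 4 to 39 counts per library up to 33 h, on 86 and 87 counts in expanded B cells and on 735 and 1011 in plasmablasts. The gene rose 14.1-fold to plasmablasts (3.81 ± 0.39, adjusted p = 2.1e-05), and the preceding change from 33 h was 1.9 ± 0.49 with an adjusted p of 0.051. That change was called with several alternatives, up to 3 without 33 h replicate 2 (adjusted p = 0.003). Its paralogue Wipi2 stayed between stage means of 15.5 and 21.7 RPKM and was DE at no transition.

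The other nucleation and conjugation genes were close to level. Becn1, a subunit of the lipid kinase complex, had stage means of 47.5 to 60.1 RPKM, the narrowest range of the 41 genes as a ratio (1.27). Atg5, Atg7, Atg12 and Atg16l1, which attach ATG8 proteins to lipid, had means of 5.35 to 37.1 RPKM, and 0 of these 4 genes were DE between neighbouring stages, with 0 at an unadjusted p under 0.05 and 0 by DESeq2's Wald test at any of the 5. Atg5 alone of them was DE over the whole course (0.8 ± 0.09, adjusted p = 0.0094), a call lost with library size alone (0.52, adjusted p = 0.68) and without naive replicate 1 (0.75, adjusted p = 0.059) or plasmablast replicate 1 (0.76, adjusted p = 0.054).

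**Figure D4:**
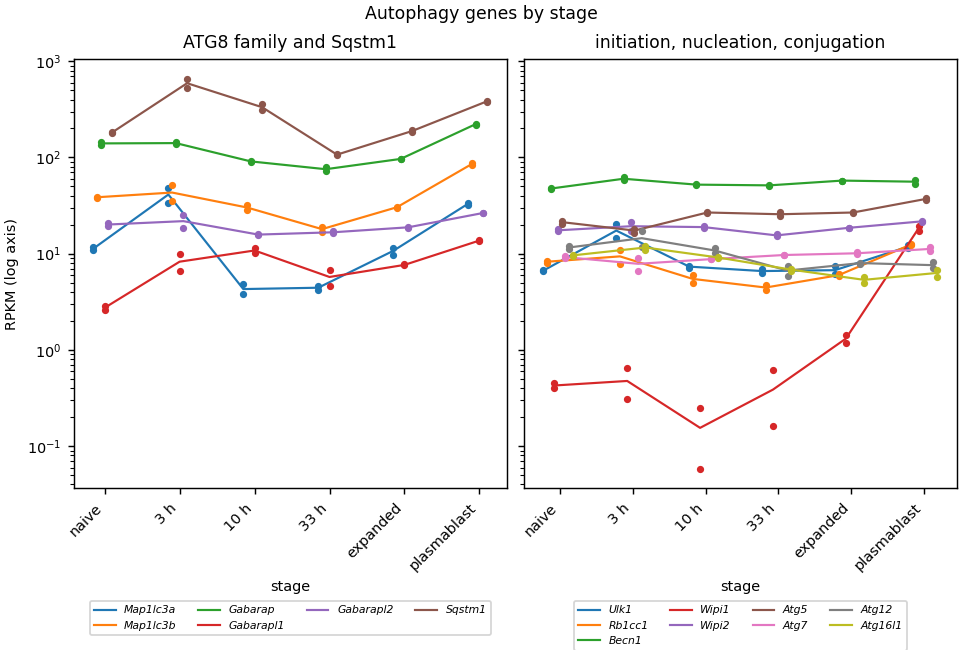
RPKM of the autophagy genes on a log axis at the 6 stages, ATG8 family and Sqstm1 on the left and initiation, nucleation and conjugation genes on the right, with a point for each library and lines through the stage means. Sqstm1, Map1lc3a and Ulk1 peak at 3 h, and Wipi1 climbs from below 1 RPKM up to 33 h to 17.1 and 19.6 RPKM in plasmablasts.

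Setting plasmablasts directly against naive cells gives the net change, in a comparison that shares its libraries with the first and last transitions. Of the 39 members, 19 (48.7%) were higher and 2 (5.13%) lower, where 26.6% of all tested genes were higher and 23.4% lower. With scaling by library size alone, which shifted the median of all genes by -0.28, the split was 13 higher and 4 lower. V-ATPase genes had 8 higher and 0 lower, lysosome genes 4 and 2, and autophagy genes 7 and 0. For both lower counts of 0, an unadjusted p under 0.05 was reached by 0 genes, and DESeq2's Wald test called 0. With library size alone the autophagy split was 5 and 2. The myeloid and erythroid marker sums given above fell over the same comparison, and their part in it was not tested. The members furthest above their naive level were Wipi1 (43-fold, 5.43 ± 0.46, adjusted p = 9.7e-07), Atp6v0a1 (8.87-fold, 3.15 ± 0.12, adjusted p = 3.5e-10) and Ctsl (8.27-fold, 3.05 ± 0.31, adjusted p = 5.1e-06). Those below it were Tfeb, 4.04-fold lower (-2.02 ± 0.11, adjusted p = 1.5e-08), and Psap.

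**Figure D5:**
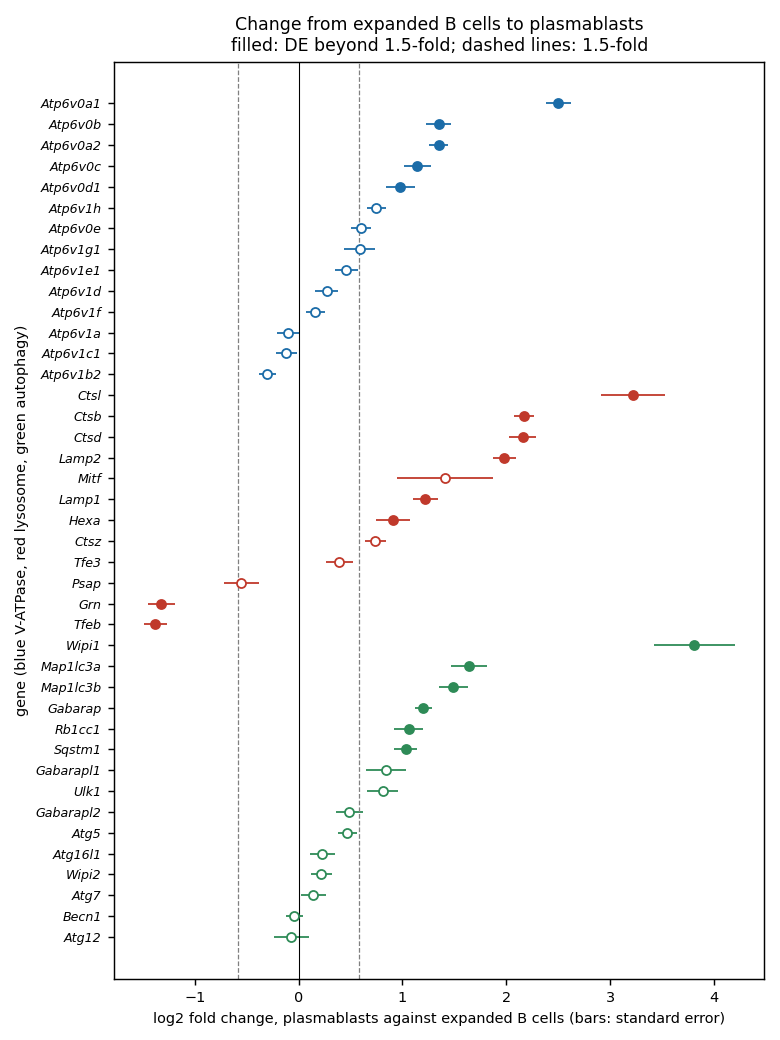
Log2 fold change from expanded B cells to plasmablasts for the 41 genes (points, bars for the standard error), with filled points for DE genes and dashed lines at 1.5-fold in either direction. Wipi1 (3.81) and Ctsl (3.22) lie furthest to the right, Tfeb (-1.38) and Grn (-1.32) are the filled points on the left, and none of the V1 genes is filled.

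Other genes of the same pathways, which were listed by name and are not among the 41, are given by their counts. Of 70 further lysosome genes tested, 34 fell and 2 rose from naive to 3 h (median log2 fold change -0.74), next to the myeloid marker sums given above, and 40 rose and 1 fell at the last step (median 0.98). In between, 13 rose and 6 fell from 3 h to 10 h, 7 rose and 1 fell from 10 h to 33 h, and 10 rose and 1 fell from 33 h to expanded B cells. Of 43 further autophagy genes, 5 rose and 11 fell, 5 rose and 8 fell, 3 rose and 2 fell, 2 rose and 1 fell, and 13 rose and 1 fell over the 5 transitions in order. At the first of these, 11.6% rose and 25.6% fell, against 21% and 24.3% of all tested genes. At the middle steps the shares were 11.6% and 18.6%, 6.98% and 4.65%, and 4.65% and 2.33%. Those of all tested genes were 17.4% and 13.4%, 10.1% and 4.45%, and 6.94% and 3.66%. At the last step 30.2% rose and 2.33% fell, against 13.9% and 12.2%. For the lysosome list the shares were 2.86% and 48.6% at the first transition and 57.1% and 1.43% at the last. From 3 h to 10 h and 10 h to 33 h its rises, 18.6% and 10%, were near the 17.4% and 10.1% of all tested genes. From 33 h to expanded B cells 14.3% rose, against 6.94%. Its falls at the middle steps were 8.57%, 1.43% and 1.43%, against 13.4%, 4.45% and 3.66%. Of 9 further V-ATPase genes, 5 (55.6%) fell from naive to 3 h and 3 (33.3%) rose to plasmablasts. The shares of all tested genes were 24.3% and 13.9%. In the opposite direction 0 were called both times (0 at an unadjusted p under 0.05, 0 by DESeq2's Wald test). Between these steps the V-ATPase list had 2 rises (22.2%) from 3 h to 10 h, against 17.4% of all tested genes. From 10 h to 33 h it had 1 fall (11.1%, against 4.45%). From 33 h to expanded B cells it had 1 rise (11.1%, against 6.94%). Over the whole course 27 further lysosome genes (38.6%) were higher and 11 (15.7%) lower, against 26.6% and 23.4% of all tested genes. Of the autophagy list 12 were higher and 6 (14%) lower, and of the V-ATPase list 3 (33.3%) higher and 1 (11.1%) lower. The autophagy share higher, 27.9%, was near the 26.6% of all tested genes.

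Scaling by library size alone changed some of these splits. The lysosome list then had 21 rises and 3 falls from 3 h to 10 h, 6 rises and 2 falls at the following transition, and 21 rises and 18 falls over the whole course. The autophagy list had 3 rises and 14 falls from naive to 3 h, 7 rises and 5 falls at the next transition, 8 rises and 3 falls at the last step, and 10 of each over the whole course. The V-ATPase list had 3 rises and 1 fall at the last step.

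Among these genes, the receptor gene Optn rose most at 3 h, from 3.38 and 3.47 RPKM to 37.1 and 32.8 RPKM (3.35 ± 0.11, adjusted p = 3.1e-10), and fell to 5.06 and 4.43 RPKM at 10 h (-2.88 ± 0.11, adjusted p = 5.2e-09), so that it was high at 3 h like Sqstm1. Igf2r, the receptor that carries new lysosomal enzymes, rose from 3.22 and 3.17 RPKM to 11.5 and 6.86 RPKM at 3 h (1.52 ± 0.19, adjusted p = 0.00024). The lowest values at 3 h relative to naive cells were those of the sulfatase gene Sgsh, from 24.2 and 24.9 RPKM to 0.696 and 1 RPKM (-4.81 ± 0.19, adjusted p = 6.9e-10), and of the acid phosphatase gene Acp5, from 146 and 146 RPKM to 11.2 and 8.82 RPKM (-3.88 ± 0.19, adjusted p = 8.1e-09).

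From 3 h to 10 h, Smpd1, acid sphingomyelinase, rose from 1.16 and 1.57 RPKM to 5.46 and 5.48 RPKM (1.97 ± 0.14, adjusted p = 1.4e-06), and Trp53inp2 fell from 7.84 and 5.23 RPKM to 0.993 and 1.05 RPKM (-2.67 ± 0.21, adjusted p = 1.9e-06). Atg9b was also called up (adjusted p = 0.0015) but rested on 0 and 1 counts at 3 h against 24 and 16 counts at 10 h, a ratio of 28.2 with a 95% counting interval from 4.77 to 1.14e+03. Acp5 recovered in part from 10 h to 33 h, to 32.3 and 21 RPKM (2.06 ± 0.18, adjusted p = 1.5e-05), and the sulfatase gene Arsb rose from 4.97 and 4.11 RPKM to 17.8 and 16 RPKM (1.89 ± 0.11, adjusted p = 3.7e-07). At that step Calcoco1 fell from 9.93 and 12.6 RPKM to 4.93 and 2.85 RPKM (-1.52 ± 0.23, adjusted p = 0.0033), as did Cd63, a tetraspanin, from 28 and 20 counts to 4 and 4 counts (-2.63 ± 0.56, adjusted p = 0.0088), a call lost without 33 h replicate 1 (-2.25, adjusted p = 0.11).

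From 33 h to expanded B cells, Dmxl2, which takes part in assembling the V-ATPase, rose from 4 and 10 counts to 62 and 44 counts (3.18 ± 0.5, adjusted p = 0.0013), and the sorting receptor gene Sort1 from 25 and 20 counts to 67 and 68 counts (1.91 ± 0.4, adjusted p = 0.016). Both stayed below 1 RPKM, and the call of Sort1 was lost without 33 h replicate 1 (adjusted p = 0.17) or expanded replicate 2 (adjusted p = 0.099). Arsb fell again, to 7.53 and 7.19 RPKM (-1.2 ± 0.11, adjusted p = 0.00028). Rubcn, which encodes Rubicon, a protein known to restrain autophagy, fell at both of the last steps, from 51 and 34.7 RPKM at 33 h to 19.5 and 19.3 RPKM in expanded B cells (-1.14 ± 0.15, adjusted p = 0.0044) and to 5.33 and 5.4 RPKM in plasmablasts (-1.85 ± 0.16, adjusted p = 8.7e-06). The former call was lost without 33 h replicate 1 (-0.84, adjusted p = 0.086).

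At the last step, Trp53inp1, an autophagy gene known as a stress-induced p53 target, rose most of the listed genes, from 17.8 and 18.8 RPKM to 206 and 186 RPKM (3.42 ± 0.19, adjusted p = 1.2e-07), followed by Cd63, from 2 and 9 counts to 29 and 39 counts (3.07 ± 0.5, adjusted p = 0.00063).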

How the data were processed

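The authors prepared polyA libraries with a TruSeq kit, ran them on a NextSeq 500, mapped reads to mm10 (Rsubread) and assigned them to genes with featureCounts and its inbuilt Entrez annotation (the submitters' processing notes also name CASAVA 1.8.2). The deposited counts are whole numbers, neither normalized nor filtered, with the exon length of each gene. The files of single libraries hold the same counts.

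Identifiers were matched to RefSeq genes (25275 of 27179). After the study's methods, mitochondrial, ribosomal RNA, X and Y chromosome, variable immunoglobulin and unmatched identifiers were removed, which left 23700 genes. Unmatched identifiers took 1.41% to 2.08% of the counts. edgeR 4.0.16 (filterByExpr, TMM, robust quasi-likelihood fit, legacy mode, R 4.3.3) was applied to all 12 libraries in a one-way layout, and glmTreat at 1.5-fold with Benjamini-Hochberg adjustment at 0.05 gave the DE calls. Standard errors come from the quasi-likelihood F-test, and RPKM was computed from the deposited counts and exon lengths. A 2 against 2 permutation test cannot go below p = 0.333 and was not used. The scripts were tested on simulated data. Strand use in the counting is not given in the sources used here, so reads of overlapping antisense genes cannot be told apart.

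The members and the lists of further pathway genes and markers were chosen with earlier results of these data known. Named with all libraries were the 5 members of each group with the largest DE change between neighbouring stages, plus Tfeb, Tfe3, Mitf and Sqstm1. Of the further pathway genes, the 2 largest rises and falls per transition were named, except 1 that is not reported here. The alternatives were DESeq2 1.42.0 size factors or library size alone, DESeq2's Wald test, the F-test, no filter or at least 10 counts in every library, no robust mode, the newer quasi-likelihood method, a replicate block, fits of the 4 libraries compared, keeping the removed genes, and leaving out each library. Protein sequences were not used here.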

Additional observations from a re-analysis of the deposited data

How the results depend on the processing

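Over the 6 comparisons, no log2 fold change of a member or named pathway gene changed sign where it was DE in either fit: 3778 recomputed values kept their side of the threshold, 130 gained a call and 54 lost one. The F-test has no fold threshold and called 23, 24, 15, 18, 30 and 33 of the 39 members from naive to 3 h, 3 h to 10 h, 10 h to 33 h, 33 h to expanded, expanded to plasmablast and naive to plasmablast, against 9, 7, 1, 2, 18 and 21 with glmTreat. Of all 12750 tested genes, the F-test called 9052, 7942, 5798, 5053, 7256 and 9451. From 10 h to 33 h, library size alone gave 3 members and no filter on low counts 2. From 33 h to expanded B cells, DESeq2's size factors and library size alone each gave 4. Leaving out each library in turn gave 9 to 10, 5 to 11, 1 to 2, 1 to 3, 16 to 18 and 16 to 19 members. The cause was not tested. The 11 calls came without 3 h replicate 2, the 2 without 33 h replicate 2, the 1 from 33 h to expanded without expanded replicate 2.

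The replicate numbers gave little sign of pairing. Over 15 pairs of stages, the correlation of replicate differences ran from -0.26 to 0.21. The 1 pair above 0.1 was expanded B cells and plasmablasts (0.21). Low values cannot show that the libraries were unpaired. With a replicate block the counts were 9, 7, 1, 2, 18 and 21 members. Library size alone shifted the median of all genes by -0.21, 0.33, -0.06, -0.01, -0.34 and -0.28 over the comparisons, and moved the share of rises among all calls from 46.3% to 36%, 56.5% to 77.4%, 53.3% to 28.6% and 53.1% to 41.3% from naive to 3 h, 3 h to 10 h, expanded to plasmablast and naive to plasmablast. The members' split from 3 h to 10 h was 4 up and 3 down with it and 1 up and 7 down with DESeq2's size factors. Depth limits Mitf and, up to 33 h, Wipi1, whose libraries held under 40 counts.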
